A study of Rattus norvegicus with 12 samples.

Results

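Transcripts of 3 genes of the extracellular matrix (ECM) and its cell surface contacts were followed in cultured adult rat astrocytes: *Fn1*, *Tgm2* and *Itga1*, which were chosen by name as a matrix protein, an enzyme that crosslinks it and a receptor for collagen and laminin. They are 3 of the 9394 genes in the table of read counts that the authors kept after removing genes with few reads, and all 3 were in that table, as ENSRNOG00000014288 (*Fn1*), ENSRNOG00000012956 (*Tgm2*) and ENSRNOG00000053550 (*Itga1*). The cells came from brains of young adult female Wistar rats. Cultures named gmASTRs were grown from cerebral cortex freed of meninges, and cultures named wmASTRs from the tissue outside the cortex, which is mainly white matter but holds hippocampus, thalamus and basal ganglia too. All cultures were untreated, were kept for 20 days in medium with serum and were passaged with trypsin at least once, and 6 libraries of each kind were made from independent preparations, each named here by its replicate number.

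Fibronectin, the product of *Fn1*, is secreted as a soluble dimer that cells stretch into fibrils through integrins, and the fibrils then serve as a scaffold for collagens and other matrix proteins. Tissue transglutaminase, the product of *Tgm2*, joins glutamine to lysine side chains between proteins, is released to the cell surface without a signal peptide, and binds fibronectin there. Integrin alpha 1, the product of *Itga1*, pairs with integrin beta 1 to form a receptor for collagens and laminins and is not known as a fibronectin receptor. Astrocytes of the intact adult brain make little fibronectin, whereas astrocytes in serum culture and in injured tissue are known to make it.

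Between 4920488 and 7207118 reads per library were counted on genes, and the mean totals of gmASTRs and wmASTRs differed by less than the spread between libraries (exact permutation test, two-sided, p = 0.216). Levels are given in CPM, the read count of a gene scaled by the total count of its library, in the filtered table for the members, their like genes and the tested list genes, and in the larger table for markers by library, marker sums and genes found only there. A floor of 3 counts per library lay at 0.418 to 0.613 CPM. Differences are given as log2FC from edgeR's quasi-likelihood test, where a negative value stands for more transcript in wmASTRs, with the FDR adjusted over all 9394 genes. The labelled cell type was checked against 6 astrocyte genes that could be named. *Gja1*, a gap junction gene, averaged 4813 CPM in gmASTRs against 4389 CPM in wmASTRs, whereas *Gfap*, *Aqp4* and *Mlc1* were too low for the filtered table, and *Gfap* had 0 counts in all 6 gmASTR libraries and at most 60 in a wmASTR library. *Slc1a3* averaged 8.25 and 21.4 CPM and *Aldoc* 20.9 and 12.8 CPM in gmASTRs and wmASTRs. Only *Gja1* was thus abundant, and these genes alone do not settle the cell type. Of the libraries, gmASTRs replicate 5 and wmASTRs replicate 4 stood apart in marker genes given below, and leaving both out, an alternative chosen after seeing the data, gave log2FC values of -0.52 for *Fn1*, -2.27 for *Tgm2* and -2.60 for *Itga1*.

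All 3 transcripts were more abundant in wmASTRs, *Fn1* by 1.47-fold, *Tgm2* by 4.49-fold and *Itga1* by 6.49-fold. All 3 passed an FDR of 0.05, where 6.69% of the 9394 genes passed it with more transcript in wmASTRs and 12.3% in either direction. The split was 628 genes with more transcript in wmASTRs and 530 with more in gmASTRs, and it turned to 533 and 691 when libraries were scaled by their totals without TMM factors. In *Tgm2* and *Itga1* every wmASTR library lay above every gmASTR library, as in 3.09% of all genes, whereas *Fn1* overlapped between the groups. The libraries of a kind stood for separate preparations, so the tests set the regional difference against the spread between cultures. According to the paper each animal gave both kinds of culture. Which libraries share an animal is not given, so the main tests left this pairing out. In bulk RNA, fewer cells that make a transcript and less of it per cell cannot be told apart.

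*Fn1* was among the transcripts with the most reads in both kinds of culture. Since the library kit reads only the 3′ end of each transcript, counts were compared between genes without division by length, and on that scale *Fn1* took rank 12 to 39 of the genes of a gmASTR library and rank 12 to 24 of a wmASTR library. In gmASTRs the level of *Fn1* ran from 2350 CPM (replicate 4) over a median of 3335 CPM to 4416 CPM (replicate 6). In wmASTRs it ran from 3599 CPM (replicate 6) over a median of 4708 CPM to 5711 CPM (replicate 4). The groups overlapped, since gmASTRs replicate 6 was above 3 of the wmASTR libraries, while the other 5 gmASTR libraries lay below all of them. The means were 3287 ± 717 CPM (SD, n = 6) in gmASTRs and 4640 ± 877 CPM (SD, n = 6) in wmASTRs. The log2FC of *Fn1* was -0.56 (SE 0.15, 95% interval -0.86 to -0.25, quasi-likelihood FDR = 0.0162), which placed it at rank 685 of 9394 by FDR and at rank 2247 by size of the log2FC. When single libraries were dropped, the log2FC of *Fn1* stayed between -0.66 and -0.47 with a quasi-likelihood FDR of 0.00619 to 0.0444. As the least variable of the 3 members in both groups, *Fn1* had a coefficient of variation of 21.8% in gmASTRs and 18.9% in wmASTRs. Its SD of log2(CPM + 1) was 0.32 and 0.28, above the medians of 0.21 and 0.14 over the 48 genes with a mean level within 2-fold. Reads of *Fn1* made up 0.235% to 0.571% of the filtered counts of a library, so counting error was small beside the spread between cultures.

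**Figure D1:**
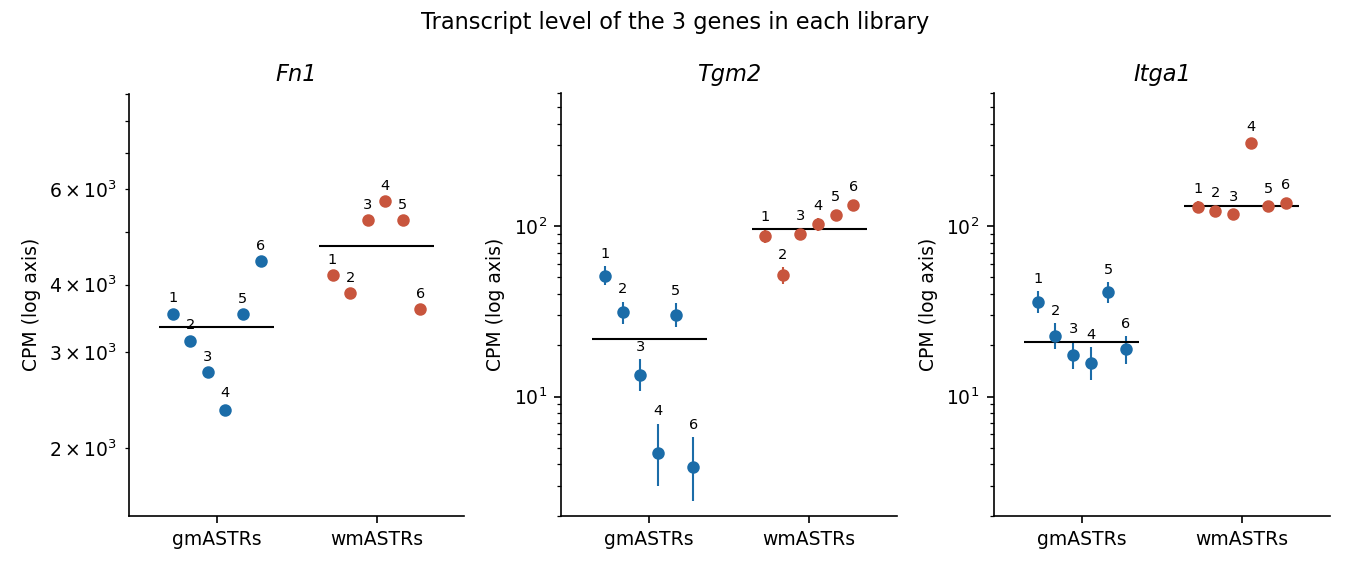
CPM of *Fn1*, *Tgm2* and *Itga1* (log axis, a separate scale for *Fn1*) in the 6 gmASTR and 6 wmASTR libraries, each point a library with its replicate number, its bar the exact 95% binomial interval of counting error and the line the group median. *Tgm2* spreads from 3.84 to 51.3 CPM in gmASTRs and reaches 51.6 CPM or more in all wmASTR libraries, and *Itga1* of wmASTRs replicate 4 stands at 306 CPM above the other wmASTR libraries.

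In gmASTRs *Tgm2* was the most variable of the 3, with a coefficient of variation of 82.4%, while in wmASTRs it had 28.9% against 46.6% for *Itga1*. Its level was 51.3 CPM in gmASTRs replicate 1, 31.2 in replicate 2, 13.4 in replicate 3, 4.67 in replicate 4, 30.2 in replicate 5 and 3.84 CPM in replicate 6. In wmASTRs it was 87.6 CPM in replicate 1, 51.6 in replicate 2, 89.7 in replicate 3, 102 in replicate 4, 117 in replicate 5 and 133 CPM in replicate 6. Replicates 4 and 6 of gmASTRs were thus far below the rest, and the groups met without overlap, with the highest gmASTR library and the lowest wmASTR library 1.01-fold apart. These edges rested on 251 counts in gmASTRs replicate 1 (exact 95% binomial interval 45.1 to 58.0 CPM) and 309 counts in wmASTRs replicate 2 (46.0 to 57.7 CPM), so their order was not resolved at this depth. The lowest libraries, gmASTRs replicates 4 and 6, rested on 24 and 23 counts, with exact 95% binomial intervals of 2.99 to 6.94 CPM and 2.44 to 5.77 CPM, which lie below those of the other 4 gmASTR libraries. Intervals cover counting error only, since reads without molecular identifiers are not independent molecules.

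Averaged over libraries, *Tgm2* had 22.4 ± 18.5 CPM (SD, n = 6) in gmASTRs and 96.8 ± 27.9 CPM (SD, n = 6) in wmASTRs. Its log2FC was -2.17 (SE 0.46, 95% interval -3.13 to -1.21, quasi-likelihood FDR = 0.00391), the rank 357 by FDR but the rank 96 by size among 9394 genes. The highest gmASTR library had 13.3-fold the level of *Tgm2* in the lowest, against 2.57-fold among the wmASTR libraries. On the scale of log2(CPM + 1), the SD of *Tgm2* was 1.42 in gmASTRs, where the median SD of the 2840 genes with a mean level within 2-fold of it was 0.31, and 0.47 in wmASTRs, where that median was 0.26. When single libraries were dropped, the log2FC of *Tgm2* ran from -2.59 (without gmASTRs replicate 1) to -1.95 (without gmASTRs replicate 6), with a quasi-likelihood FDR of 0.00125 to 0.0130.

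*Itga1* had the smallest FDR of the 3. In gmASTRs the level of *Itga1* ran from 15.7 CPM (replicate 4) over a median of 20.8 CPM to 40.9 CPM (replicate 5). In wmASTRs it ran from 117 CPM (replicate 3) over a median of 131 CPM to 306 CPM (replicate 4). No libraries overlapped: the lowest wmASTR library had 2.86-fold the level of the highest gmASTR library, and wmASTRs replicate 4 stood alone above 5 libraries between 117 and 137 CPM. The means were 25.3 ± 10.5 CPM (SD, n = 6) in gmASTRs and 157 ± 73.3 CPM (SD, n = 6) in wmASTRs. The SD of log2(CPM + 1) was 0.55 and 0.52, above the medians of 0.27 and 0.23 over the 2334 genes with a mean level within 2-fold. The log2FC of *Itga1* was -2.70 (SE 0.29, 95% interval -3.31 to -2.09, quasi-likelihood FDR = 2.05e-05), the rank 7 of 9394 by FDR and 34 by size. Without wmASTRs replicate 4 the log2FC of *Itga1* was -2.39 (quasi-likelihood FDR = 1.10e-05), and over all libraries left out in turn it ran from -2.92 to -2.39.

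Of the RefSeq promoter sequences at hand, only that of *Itga1* was matched by symbol. The 197 bases just before the annotated *Itga1* gene in the GRCr8 build, chr2:48545337-48545533 on the minus strand, are shown because this was the one member promoter at hand, with CpG dinucleotides in capitals.
Itga1 promoter: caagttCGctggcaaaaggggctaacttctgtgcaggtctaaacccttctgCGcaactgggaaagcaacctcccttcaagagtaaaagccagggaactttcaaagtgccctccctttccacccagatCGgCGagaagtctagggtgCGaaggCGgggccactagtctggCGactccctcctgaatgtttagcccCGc
This stretch held 8 CpG dinucleotides and a GC content of 55.8%, against medians of 4 and 50.8% over the same window of 33469 promoters. Searched on both strands, it held none of TATAAA (found in 9.86% of those windows), CCAAT (28.4%), GGGCGG (23.7%), TGACGTCA (0.902%), TGANTCA (5.13%) and AGGTCA (10.98%), which says only that these letters are not in this window. The count data measured no binding or methylation there.

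Whether the members differed in their regional difference was tested with ratios of read counts within a library, which do not depend on how libraries are scaled. A ratio was the log2 of the count plus 0.5 of each gene, 3 ratios were compared by exact permutation over all divisions of the 12 libraries into 6 and 6 (two-sided), and the smallest p that this test can give is 0.00216. The log2 ratio of *Tgm2* to *Fn1* lay between -10.14 and -6.10 in gmASTRs, and between -6.22 and -4.76 in wmASTRs. A single wmASTR library, replicate 2, lay below the highest gmASTR library, replicate 1. In gmASTRs replicate 6 this meant 1149 reads of *Fn1* for each read of *Tgm2*, and in wmASTRs replicate 6 it meant 27.1. The mean log2 ratio of *Tgm2* to *Fn1* differed by -2.11 (95% interval by inverting the permutation test -3.64 to -0.69, exact permutation p = 0.00433, BH-adjusted p = 0.00649).

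The log2 ratio of *Itga1* to *Fn1* lay between -7.86 and -6.43 in gmASTRs, and between -5.49 and -4.22 in wmASTRs. These ratios did not overlap between the groups and varied less than those of *Tgm2*. Their means differed by -2.13 (95% interval -2.77 to -1.51, exact permutation p = 0.00216, BH-adjusted p = 0.00649). By this test, relative to *Fn1* both *Tgm2* and *Itga1* were more abundant in wmASTRs, by 4.32-fold and 4.38-fold. These folds average log ratios, and those of *Tgm2* in gmASTRs replicates 4 and 6 were low, at -8.95 and -10.14. With single libraries left out, the difference for *Tgm2* ran from -2.43 to -1.63 and that for *Itga1* from -2.26 to -1.98. The edgeR folds, without division by *Fn1*, were less alike, at 4.49 for *Tgm2* and 6.49 for *Itga1*. The log2 ratio of *Itga1* to *Tgm2* lay between -0.51 and 2.27 in gmASTRs, and between 0.04 and 1.58 in wmASTRs. All wmASTR libraries lay within the range of the gmASTR libraries. The mean difference was -0.02 (95% interval -1.18 to 1.19, exact permutation p = 0.968), so a difference between the regional changes of *Itga1* and *Tgm2* was not detectable, and the interval allows more than a 2-fold difference either way.

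**Figure D2:**
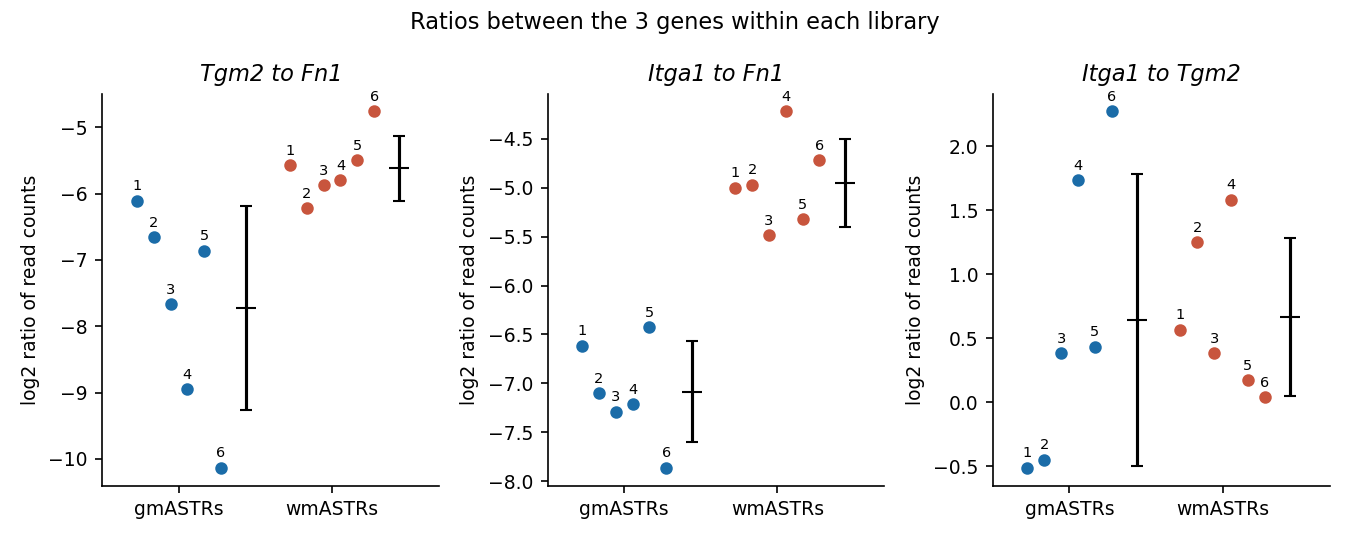
Log2 ratios of read counts between the members (pseudocount 0.5) in each library, with replicate numbers, and mean ± SD (n = 6) beside the points. Ratios to *Fn1* lie lower in gmASTRs, and gmASTRs replicates 4 and 6 have the most *Itga1* per *Tgm2* read, at log2 ratios of 1.73 and 2.27.

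Among the libraries of a group no pair of members passed a test of varying together. In gmASTRs *Tgm2* and *Itga1* had a Pearson r of 0.794 over 6 libraries (exact permutation p = 0.0833) and a Spearman rho of 0.657 (exact permutation p = 0.175), and r was 0.766 without replicates 4 and 6. In wmASTRs this pair had an r of 0.237 (exact permutation p = 0.511) and a rho of 0.657 (exact permutation p = 0.175). All 6 correlations of log2 CPM, of 3 pairs in 2 groups, had BH-adjusted p-values of 0.483 or more. *Fn1* and *Tgm2* had an r of 0.0979 in gmASTRs (exact permutation p = 0.843, rho 0.0857, exact permutation p = 0.919), where replicate 6 had the most *Fn1* and the least *Tgm2*. Without gmASTRs replicates 4 and 6 this r was 0.895, and that of *Fn1* and *Itga1* was 0.970 (0.444 with all 6 libraries). In wmASTRs, without replicates 4 and 6, r of *Fn1* and *Tgm2* was 0.819 (0.220 with all 6) and that of *Fn1* and *Itga1* was -0.102 (0.506 with all 6). The values with *Fn1* thus changed with the libraries left out. Those libraries were picked by their values, as the farthest from the group median of the first gene of a pair. Few libraries remained, so these r values are a description only. With only 6 libraries in a group, weaker relations could not be resolved.

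The genes whose pattern was most like that of each member were sought among the other 719 genes with a known name and a mean of at least 20 CPM, by Pearson r of log2 CPM over the 12 libraries, as a description in which all points share library and depth. For *Tgm2*, after group means were subtracted, these were *Inhba* (r = 0.916), *Ankrd1* (0.909), *Grem1* (0.869), *Myh11* (0.853) and *Bdnf* (0.851), and the same 5 genes were nearest without subtraction (0.942 to 0.966). *Inhba* encodes a subunit of activin, *Grem1* an antagonist of bone morphogenetic proteins, *Myh11* the smooth muscle myosin heavy chain and *Bdnf* a neurotrophin. For *Itga1* they were *Tgfb2* (0.915), *Sulf1* (0.861), *Ppp1r14a* (0.854), *Grem1* (0.826) and *Tinagl1* (0.824) after subtraction. Without it they were *Ppp1r14a* (0.973), *Tgfb2* (0.970), *Eln* (0.970), *Grem1* (0.966) and *Ctgf* (0.964). *Tgfb2* encodes a transforming growth factor, *Sulf1* an enzyme that trims heparan sulfate, and *Eln* elastin.

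For *Fn1* the nearest genes had lower r values. After subtraction they were *Stat3* (0.671), *Psen2* (0.666), *Pgf* (0.659), *Slc25a1* (0.656) and LOC689574 (0.650), and without it *Stat3* (0.821), *Ltbp1* (0.821), *Ccl2* (0.819), *Tgfb2* (0.815) and *Col12a1* (0.814). *Stat3* encodes a transcription factor of cytokine signaling, *Ltbp1* a matrix protein that holds latent transforming growth factor and *Ccl2* a chemokine. With single libraries left out, chosen after seeing the data, r with *Fn1* after subtraction fell to 0.431 for *Pgf* and to 0.426 for LOC689574, both without gmASTRs replicate 4, whereas for the genes near *Tgm2* and *Itga1* after subtraction it stayed at 0.750 or more. Names are known mostly for genes with a large fold change or with more transcript in gmASTRs, so other genes may be nearer.

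Genes that act with the members were counted in 9 lists, of which only a part could be named: 21 of 98 genes had a name, 18 of these were in the filtered table, and 16 remain besides *Tgm2* and *Itga1*. Of these 16 genes, 10 were higher in wmASTRs, 4 were higher in gmASTRs and 2 did not pass an FDR of 0.05. Without gmASTRs replicate 5 and wmASTRs replicate 4 the number called was again 14, with *Lims2* gained and *Lama5* lost. Named genes are not a fair sample, as 35.7% of the 1592 named genes of the filtered table passed, against 12.3% of all 9394. Names came from the authors' supplementary lists, where genes that differ are over-represented, so being named was tied to passing. The paper's heatmap of matrix genes, moreover, shows only genes at an FDR < 0.05. The counts of called genes are therefore no result about the lists. The median log2FC of the 16 was -1.07, against 0.02 over all 9394 genes and 0.65 over the 1592 with a name.

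Transglutaminases besides *Tgm2*, and integrin subunits that bind fibronectin (11 genes), were without a name and are not analysed here. Of the integrin subunits that bind collagen or laminin, 5 of 8 had a name and *Itga1* and *Itga11* were in the filtered table. *Itga11*, which encodes another collagen receptor subunit, was at 0.174 to 6.94 CPM in gmASTRs and 13.5 to 27.0 CPM in wmASTRs. All wmASTR libraries thus lay above all gmASTR libraries, as for *Itga1* (log2FC -3.32, SE 0.57, quasi-likelihood FDR = 0.000785, and log2FC -4.17 without gmASTRs replicate 1). The rest were low and tested in the larger table of 15478 genes with at least 1 count. *Itga7*, a laminin receptor subunit of muscle, had at most 2.83 CPM in gmASTRs and 3.18 to 17.1 CPM in wmASTRs, a log2FC of -2.86 (quasi-likelihood FDR = 0.0362). Its call was lost without gmASTRs replicate 2, 4 or 6 or wmASTRs replicate 4 or 6 (FDR of 0.0554 to 0.128). *Itga10* and *Itgb4* stayed at or below 6.10 CPM in every library and did not pass (log2FC 2.23 and 0.46, quasi-likelihood FDR = 0.275 and 0.841).

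Among the ligands of integrin alpha 1, 4 of 12 had a name and all 4 passed, a count that depends on which genes had a name. *Col4a1*, a chain of basement membrane collagen, had 1020 ± 336 CPM (SD, n = 6) in gmASTRs and 2130 ± 200 CPM (SD, n = 6) in wmASTRs, without overlap (log2FC -1.11, SE 0.17, quasi-likelihood FDR = 0.000366). *Col3a1*, a fibrillar collagen, went the other way, with 1782 ± 427 CPM (SD, n = 6) in gmASTRs against 1116 ± 207 CPM (SD, n = 6), a log2FC of 0.62 (SE 0.15, quasi-likelihood FDR = 0.0109). The laminin chains *Lama1* (log2FC -1.22, quasi-likelihood FDR = 0.0417) and *Lama5* (log2FC -1.06, quasi-likelihood FDR = 0.0411) had at most 42.0 and 33.0 CPM in a library and overlapped between the groups. Both calls were lost with single libraries left out, *Lama1* at a quasi-likelihood FDR of up to 0.106 and *Lama5* of up to 0.0847.

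Of the machinery that assembles fibronectin and anchors it to the cell, 3 of 20 genes had a name. *Sdc4*, a heparan sulfate proteoglycan that binds fibronectin and is also a surface partner of transglutaminase, was higher in gmASTRs, at 888 to 1438 CPM against 518 to 888 CPM. The highest wmASTR library and the lowest gmASTR library were alike at 888 CPM (log2FC 0.73, SE 0.14, quasi-likelihood FDR = 0.00152). *Pxn*, the focal adhesion adaptor paxillin, was higher in gmASTRs (log2FC 0.66, SE 0.19, quasi-likelihood FDR = 0.0267), a call lost without gmASTRs replicate 3 or 4 or wmASTRs replicate 4 or 6 (quasi-likelihood FDR up to 0.0650). *Lims2* did not pass (log2FC -0.83, quasi-likelihood FDR = 0.131).

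Of the regulators of *Tgm2*, 3 of 12 had a name. *Tgfb2* had 211 ± 78.3 CPM (SD, n = 6) in gmASTRs and 515 ± 103 CPM (SD, n = 6) in wmASTRs, without overlap (log2FC -1.34, SE 0.21, quasi-likelihood FDR = 0.000474). *Rara*, a retinoic acid receptor, was higher in gmASTRs, at 33.9 ± 6.69 against 17.2 ± 1.26 CPM and without overlap (log2FC 0.92, SE 0.18, quasi-likelihood FDR = 0.00270). *Tgfb1* did not pass (log2FC 0.65, SE 0.50, quasi-likelihood FDR = 0.469).

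Among surface partners and matrix substrates of transglutaminase, 4 of 9 had a name, and the 3 besides *Sdc4* were higher in wmASTRs. *Ltbp1* was at 0.194 to 12.3 CPM in gmASTRs and 21.3 to 129 CPM in wmASTRs, which gave a log2FC of -3.81 (SE 0.62, quasi-likelihood FDR = 0.000590). *Spp1*, the substrate osteopontin, was at 21.7 to 47.4 CPM and 108 to 690 CPM (log2FC -3.08, SE 0.41, quasi-likelihood FDR = 0.000111). Without wmASTRs replicate 4, the library with 690 CPM, the log2FC of *Spp1* was -2.38. *Fbn1*, which encodes the microfibril protein fibrillin, was at 169 to 443 CPM and 473 to 581 CPM (log2FC -1.11, SE 0.19, quasi-likelihood FDR = 0.000785). None of these 3 overlapped between the groups.

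Of the other crosslinking enzymes only *Lox*, the lysyl oxidase that crosslinks collagen and elastin, had a name. It had 1004 ± 165 CPM (SD, n = 6) in gmASTRs and 2031 ± 186 CPM (SD, n = 6) in wmASTRs, without overlap (log2FC -1.08, SE 0.11, quasi-likelihood FDR = 2.05e-05). Of 11 genes of fibronectin turnover, 1 was analysed, *Timp1*, an inhibitor of matrix metalloproteinases. Its level was 120.0 to 227 CPM in gmASTRs and 228 to 326 CPM in wmASTRs, and its log2FC was -0.65 (SE 0.15, quasi-likelihood FDR = 0.00576). It was higher in wmASTRs without overlap, by a margin of under 1 CPM.

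**Figure D3:**
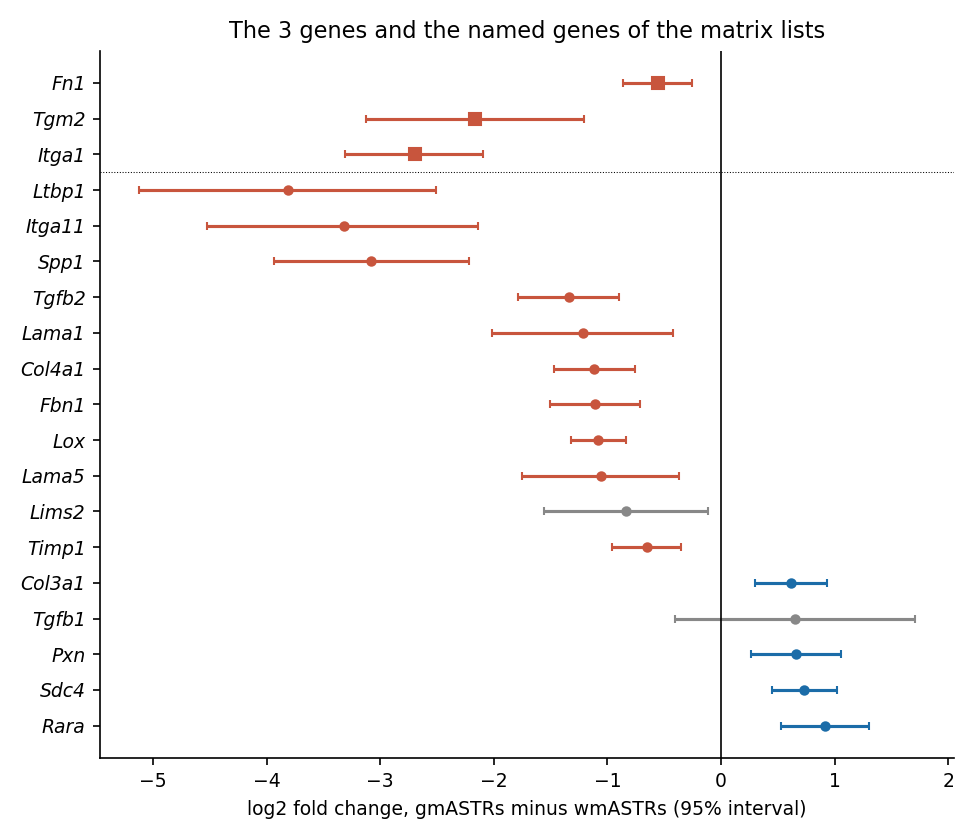
Log2FC of gmASTRs minus wmASTRs with 95% intervals from edgeR for the 3 members (squares) and the 16 other named genes of the lists (circles), in red where wmASTRs were higher and in blue where gmASTRs were higher at an FDR under 0.05, and in grey otherwise. The members lie at -0.56, -2.17 and -2.70, and *Col3a1*, *Pxn*, *Sdc4* and *Rara* are the 4 genes higher in gmASTRs.

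Marker genes of other cell types differed between the groups too. The 5 named genes of 9 leptomeningeal fibroblast markers, of which *Cldn11* encodes a tight junction protein, summed to 521 to 5227 CPM in gmASTRs and 244 to 550 CPM in wmASTRs. These sums were mostly *Cldn11*, *Cdh1* and *Foxc1*, which were higher in gmASTRs (log2FC 5.98, 5.01 and 0.64, quasi-likelihood FDR = 6.40e-05, 0.000742 and 0.00751), and without wmASTRs replicate 3 those of *Cldn11* and *Cdh1* were 6.64 and 6.55. *Aldh1a2* did not pass (log2FC 1.19, quasi-likelihood FDR = 0.211), and *Ptgds*, at 0 counts in gmASTRs replicates 3 and 5, at 3.64 CPM in replicate 2, was higher in wmASTRs in the larger table (log2FC -3.22, quasi-likelihood FDR = 0.0213). For *Ptgds* the log2FC was -4.33 without gmASTRs replicate 2, and the call was lost without wmASTRs replicate 1 or 4 (quasi-likelihood FDR = 0.106 and 0.0552). Within gmASTRs the summed level was highest in replicates 4 (5227 CPM) and 6 (5084 CPM), the libraries with the least *Tgm2*. It was lower in replicates 3 (3301 CPM), 2 (2922 CPM) and 1 (2116 CPM), where *Tgm2* was higher in that order, and lowest in replicate 5 (521 CPM), which had the third highest level of *Tgm2*. *Aldh1a2* of the same list did not follow this order, with its lowest level in replicate 6 (3.32 CPM), 16.0 CPM in replicate 4 and its highest in replicate 5 (47.2 CPM). *Itga1* ran against these sums too, with its highest gmASTR level in replicate 5 (40.9 CPM) and its lowest in replicate 4 (15.7 CPM). The part of these cells in the levels of *Tgm2* and *Itga1* was not tested.

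The 3 named genes of 12 pericyte and smooth muscle markers, *Cspg4*, *Myh11* and *Des*, summed to 63.97 to 192 CPM in gmASTRs and 424 to 1142 CPM in wmASTRs. All 3 were higher in wmASTRs, *Cspg4* with a log2FC of -1.92, *Myh11* of -2.40 and *Des*, in the larger table, of -4.65 (quasi-likelihood FDR = 0.00577, 0.000152 and 0.000169), and without gmASTRs replicate 5 and wmASTRs replicate 4 that of *Cspg4* was -1.21 and that of *Des* -3.23. The log2FC of *Des* was -3.46 without wmASTRs replicate 4 and -5.33 without gmASTRs replicate 1. The 1142 CPM were those of wmASTRs replicate 4, the library with 306 CPM of *Itga1*, against 424 to 589 CPM in the remaining 5. In gmASTRs the sums were highest in replicates 1 (192 CPM) and 5 (161 CPM), the libraries with the most *Itga1*, and lowest in replicates 4 and 6 (69.4 and 63.97 CPM). In gmASTRs these sums were mostly *Myh11* (165 and 154 CPM in replicates 1 and 5), whereas *Cspg4* was lowest in replicate 5 (6.82 CPM) and highest in replicate 6 (34.7 CPM), and *Des* was highest in replicate 1 (7.11 CPM), at 2.82 CPM in replicate 6, at 0.189 CPM in replicate 5 and at 0 counts in replicate 4. *Des*, the muscle filament desmin, had 1215 counts in wmASTRs replicate 4 and 24 to 324 counts in the other wmASTR libraries. *Tgm2* went with these sums in gmASTRs too, at 51.3 CPM in replicate 1 and at 4.67 and 3.84 CPM in replicates 4 and 6. The part of these cells in the levels of *Itga1* and *Tgm2* was not tested.

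Of the other lists, 3 of 10 endothelial markers had a name and summed to 7.92 to 28.2 CPM in gmASTRs and 29.1 to 315 CPM in wmASTRs. Of these *Esam* was higher in wmASTRs (log2FC -3.67, quasi-likelihood FDR = 0.000750, and log2FC -3.05 without wmASTRs replicate 4), and *Egfl7* and, in the larger table, *Tek* did not pass (quasi-likelihood FDR = 0.601 and 0.736). The sums of 3 of 10 microglial markers were 0.193 to 10.97 CPM and 11.7 to 45.2 CPM. In the larger table *Aif1* and *Cd68* were higher in wmASTRs (log2FC -2.57 and -2.78, quasi-likelihood FDR = 0.0242 and 0.0123) and *Irf8* did not pass (log2FC -1.81, quasi-likelihood FDR = 0.425). The call of *Aif1* was lost without wmASTRs replicate 1 or 4 (quasi-likelihood FDR = 0.0659 and 0.103), and the log2FC of *Cd68* was -3.74 without gmASTRs replicate 1. The 3 analysed genes of 9 oligodendrocyte lineage markers summed to 41.4 to 101.3 CPM and 57.4 to 148 CPM. Most of these sums was *Pdgfra*, which did not pass (log2FC -0.32, quasi-likelihood FDR = 0.447). The myelin genes *Mbp* and *Mag* were higher in wmASTRs in the larger table (log2FC -4.61 and -4.97, quasi-likelihood FDR = 0.000158 and 0.00523). The log2FC of *Mbp* was -6.24 without gmASTRs replicate 1, and that of *Mag* was -6.22 without gmASTRs replicate 6. The sums of 2 of 4 neuronal markers were 14.9 to 34.5 CPM and 13.1 to 39.4 CPM. The neuronal genes went opposite ways, *Tubb3* higher in wmASTRs (log2FC -1.88, quasi-likelihood FDR = 0.0126, but 0.0509 without wmASTRs replicate 4) and *Syt1* higher in gmASTRs (log2FC 2.06, quasi-likelihood FDR = 0.00628). *Ttr*, the only named choroid plexus marker, had 0 to 3.98 CPM and 4.65 to 376 CPM and was higher in wmASTRs in the larger table (log2FC -6.41, quasi-likelihood FDR = 2.23e-05). The log2FC of *Ttr* was -5.08 without wmASTRs replicate 1 and -7.39 without gmASTRs replicate 5. The 6 astrocyte genes summed to 3676 to 5495 CPM in gmASTRs and 2264 to 5819 CPM in wmASTRs, with the lowest sum in wmASTRs replicate 4, and nearly all of each sum was *Gja1* (log2FC 0.08, quasi-likelihood FDR = 0.835). *Slc1a3* was higher in wmASTRs (log2FC -1.43, quasi-likelihood FDR = 0.0158), and so were, in the larger table, *Gfap*, *Aqp4* and *Mlc1* (quasi-likelihood FDR = 0.00190, 0.0159 and 0.00445, calls kept with each library left out), while *Aldoc* did not pass (quasi-likelihood FDR = 0.167). The part of these cell types in the levels of the 3 members was not tested.

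**Figure D4:**
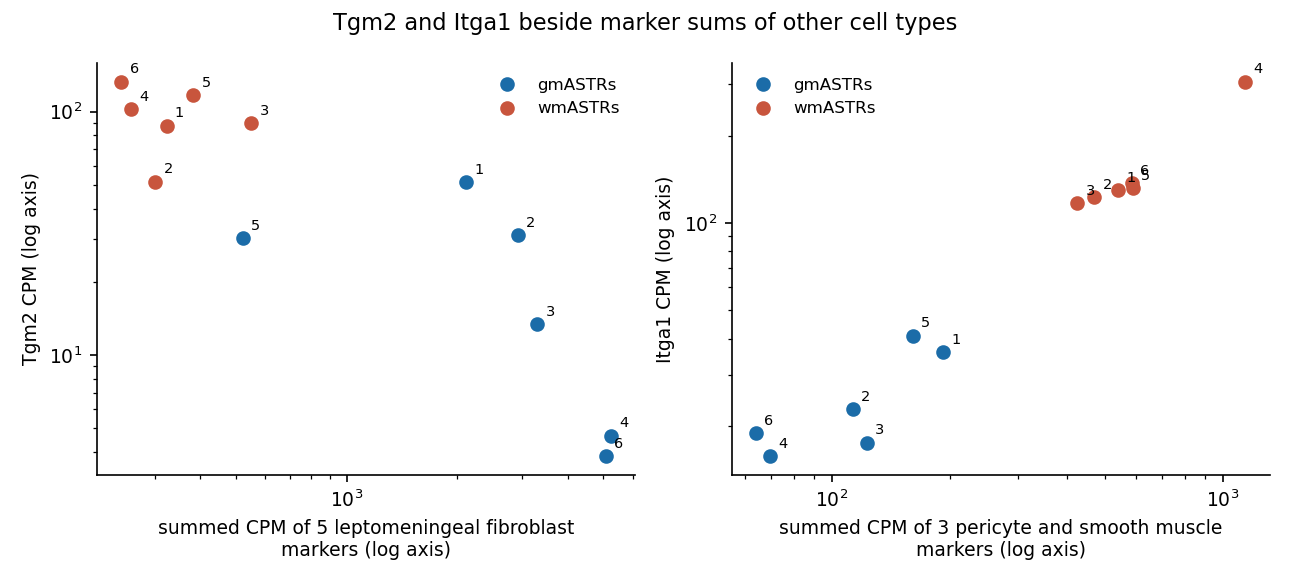
*Tgm2* CPM against the summed CPM of 5 leptomeningeal markers and *Itga1* CPM against that of 3 pericyte and smooth muscle markers (log axes), each point a library with its replicate number. The crossed pairs, *Tgm2* with the pericyte and smooth muscle sums and *Itga1* with the leptomeningeal sums, are not drawn. gmASTRs replicates 4 and 6 join the least *Tgm2* with sums of 5227 and 5084 CPM, which are mostly *Cldn11* and *Cdh1*, and wmASTRs replicate 4 joins 306 CPM of *Itga1* with 1142 CPM of the pericyte and smooth muscle markers.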

How the data were processed

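RNA of 6 gmASTR and 6 wmASTR cultures was sequenced with a QuantSeq 3′ kit. The authors checked reads with fastQC, used HISAT (0.1.5) for alignment, SAMtools (1.2) for sorting and HTSeq (0.6.1p1) for counting on Ensembl genes, without strand and in union mode, and deposited unnormalized counts of 17941 genes and of the 9394 genes kept by their DAFS filter. The labels name a mouse genome build and the methods a rat genome, while all identifiers are of rat genes, so the build is not settled here. Antisense and overlapping genes cannot be told apart without strand.

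From the counts, CPM and all tests were computed with edgeR (4.0.16; TMM, region only, prior count 0.125) in R (4.3.3), and with numpy (2.4.6), pandas (2.3.3) and scipy (1.17.1) in Python (3.11.15); figures used matplotlib (3.10.9). Genes were called at an FDR under 0.05. Alternatives were other scalings, limma-voom (3.58.1), DESeq2 (1.42.0), other gene filters, a replicate block and each library left out. Tables hold identifiers only: 2010 names came from pairs in the supplementary file, which was read in part, and 85, *Fn1* included, from a match of 12 CPM values. In 3 simulations of this comparison on 9394 genes, edgeR recovered 48% to 66% of 2-fold and 82% to 88% of 4-fold changes. The members, lists and tests were chosen with earlier results of these data known. Some genes are not reported here and were left out of lists and likeness. Genes named are the members, the 5 most alike, and in each list those past the threshold (at most 5) with at most 3 others of the highest mean CPM.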

Additional observations from a re-analysis of the deposited data

Results flagged for a closer look

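*Itga1* in wmASTRs replicate 4, at 306 CPM, was far from the other 5 wmASTR libraries, which lay between 117 and 137 CPM; its gap to them exceeded the limit of Dixon's test at 95%. It was the only such library among 14 groups of values tested (the CPM of the 3 members, their 3 ratios and the total count, in each kind of culture). By chance about 1 in 20 groups is flagged, so 1 flag among 14 groups is not unusual. The groups are not independent either, since the ratios reuse the counts of the members. Of the wmASTR libraries, replicate 4 also had the highest level of *Fn1*, at 5711 CPM, but not of *Tgm2*.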

How the results depend on the processing

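*Fn1*, *Tgm2* and *Itga1* kept their direction and passed an FDR of 0.05 in all 20 alternatives each, with log2FC of -0.66 to -0.47, -2.74 to -1.95 and -2.92 to -2.39 and FDR of at most 0.0478, 0.0130 and 0.000313. The ratios of *Tgm2* and *Itga1* to *Fn1* kept their call in all 15 alternatives each (differences of -2.43 to -1.63 and -2.26 to -1.98). The *Itga1* to *Tgm2* ratio, which was not called, ran from -0.35 to 0.21 with single libraries left out, so its sign depends on the libraries. The number of genes called ran from 883 to 1569, and that of list genes from 12 to 14. The sources used here do not say what a replicate number marks, although each animal gave both kinds of culture; same-numbered libraries did not deviate together (correlations of -0.0236 to 0.00738), and 0 of the libraries correlated best with its own number. Under a replicate block, 970 genes were called, the log2FC were -0.57 (FDR = 0.0478), -2.51 (FDR = 0.0102) and -2.67 (FDR = 0.000313) by edgeR, and the ratios gave exact permutation p = 0.0312 (*Tgm2* to *Fn1*), 0.0312 (*Itga1* to *Fn1*) and 0.969 (*Itga1* to *Tgm2*), the first value being the smallest that swaps within numbers can give; the block changed no call of the members. Among markers and genes of the larger table, refitted after seeing the data, the log2FC of *Gja1*, not called, ran from -0.061 to 0.167 with single libraries left out and was -0.12 without gmASTRs replicate 5 and wmASTRs replicate 4, and that of *Itgb4* in the larger table, not called, ran from -0.054 to 1.14 with single libraries left out. Depth limits *Tgm2* in gmASTRs replicates 4 and 6, at 24 and 23 counts.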
